A study of Homo sapiens with 2 samples.

Results

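The Sm, LSm and snRNP core proteins were followed through the RNA of 2 cultures of HGC-27 cells, as the 32 genes LSM1 to LSM8, LSM10, LSM11, LSM12, LSM14A, LSM14B, SNRPA, SNRPA1, SNRPB, SNRPB2, SNRPC, SNRPD1, SNRPD2, SNRPD3, SNRPE, SNRPF, SNRPG, SNRPN, SNRNP25, SNRNP27, SNRNP35, SNRNP40, SNRNP48, SNRNP70 and SNRNP200. They were taken by symbol from the 63677 genes of the count table, where each had exactly 1 row. HGC-27 is an established human line labelled gastric adenocarcinoma. Both cultures were transfected with the reagent INTERFERin and collected 48 hours later. The control culture received the empty plasmid pcDNA3.1, and the other received pcDNA3.1-lncPSCA, a plasmid for overexpression of the long non-coding RNA lncPSCA. Each group has 1 library, so no comparison below has a replicate check or a p-value. Bulk RNA from a culture cannot tell apart fewer cells that express a gene from less RNA per cell.

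The Sm proteins form a ring around a short uridine-rich site of the U1, U2, U4 and U5 small nuclear RNAs, which with U6 build the spliceosome, the machine that removes introns from pre-mRNA. The related LSm proteins form rings of their own: a nuclear ring holds U6 RNA, and a cytoplasmic ring that differs from it in a single subunit binds mRNA ends during decapping and decay. Other members belong to a single small nuclear ribonucleoprotein (snRNP), such as the proteins of the U1, U2 and U5 particles, of the U11/U12 particle that splices a rare class of introns, or of the U7 particle that trims histone mRNA. All of these are housekeeping functions of a dividing cell.

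Depth was 21552098 counts in control and 23016646 counts in lncPSCA. Of all genes, 15440 were measured, meaning a mean over both libraries of at least 1 CPM (counts per 1000000 counts, after scaling of the library sizes). No row is named lncPSCA. For PSCA, the gene that gives it its name, 22 reads were counted in control and 28699 in lncPSCA. The counts cannot tell whether these include reads of the plasmid's lncPSCA transcript, so the difference is not read as one in PSCA mRNA. The epithelial markers EPCAM (7 and 7 reads), KRT18 (4 and 0) and KRT19 (1 and 0) were near or at 0 in both libraries although the line is labelled an adenocarcinoma. KRT8 reached only 3.13 and 2.47 CPM, and CDH1 only 1.23 and 0.851 CPM (26 and 20 reads). Of the 3 mesenchymal markers, VIM was level at 2601 and 2594 CPM, FN1 stood at 26.3 and 61.6 CPM (2.35-fold higher in lncPSCA, counting interval 2.13 to 2.59), and CDH2 had 4 and 6 reads. The part of the difference in FN1 in the members' ratios was not tested. Of the 7 leukocyte and endothelial markers looked at, none exceeded 2.64 CPM in either library, and CD3E, PECAM1 and CDH5 had no read.

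Most of the members were slightly less abundant in the lncPSCA library, and few by a large factor. Of the 32 genes, 31 were measured, and each of these had at least 100 reads in each library. Their CPM values summed to 4410 in control and to 3670 in lncPSCA, a fold of 0.832 (95% counting interval 0.825 to 0.840). The log2 ratio of lncPSCA over control, taken after adding 1 count scaled to library size, was below 0 for 28 of the 31 genes, against 51.9% of all measured genes. Its median over the members was -0.35, against -0.02 over all measured genes. The counting interval, an exact Clopper-Pearson interval that covers counting error only, lay wholly below a fold of 1 for 27 members and wholly above it for 2. Over all measured genes those shares were 32.1% and 27.0%. Counting intervals narrow as reads increase, and the measured genes reach down to 1 CPM, so these shares are not matched for read number. The share among genes with like read numbers was not counted. Small differences pass as well: the 27 include SNRPD2, with a log2 ratio of -0.06.

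**Figure D1:**
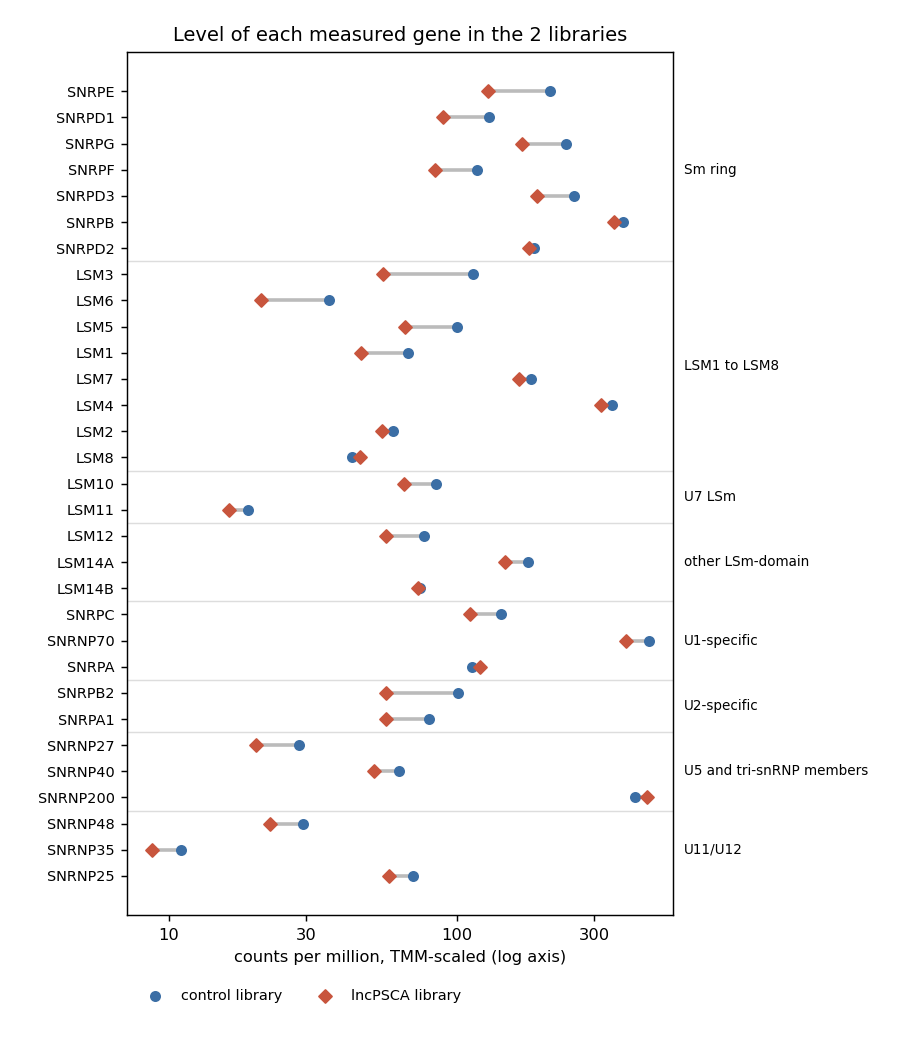
Level of each of the 31 measured genes in CPM (log axis) in the control library (circles) and the lncPSCA library (diamonds), with genes grouped by complex. The diamond lies to the left of the circle for 28 genes and to the right for LSM8, SNRPA and SNRNP200.

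Genes were described with 2 fixed size rules, since no test was possible. The 2-fold rule asks for at least a 2-fold difference and a counting interval wholly beyond 1.5-fold, and the 1.5-fold rule for at least 1.5-fold with an interval wholly beyond 1.2-fold. LSM3 was lower by the 2-fold rule, 1 of 31 members against 0.596% of all measured genes. No member was higher by that rule, which 3.02% of all measured genes met. By the 1.5-fold rule 5 members were lower (LSM3, LSM5, LSM6, SNRPB2 and SNRPE), or 16.1% against 4.59% of all measured genes, and none was higher, against 8.82%. With so few members, a single gene moves the share by over 3 percentage points.

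Across all measured genes the ratio moved with transcript length and abundance, and among the members these trends did not hold. Spearman's rho between log2 ratio and length was 0.24 over 14993 genes and -0.07 over the 31 members, and with mean CPM it was -0.23 over 15440 genes and 0.21 over the members. Genes are not independent replicates, and all of these values come from the same 2 libraries. The members' annotated principal transcripts had a median of 1621 bases, against 2818 bases for all measured genes with a length. When measured genes were put into 10 bins by length, the median log2 ratio was -0.14 in the second bin, which holds 11 members, and 0.26 in the bin of the longest transcripts. Within their own length bin 25 of 31 members lay below the bin's median, against 50.0% of all genes. Below the bin's lower quartile lay 18 of 31 members, against 3750 of the 14993 measured genes with a length. Within bins of mean expression 23 of 31 members lay below the bin's median, again against 50.0%. After centring all ratios along mean expression and then along length, the members' median was -0.20 and 22 of 31 lay below 0. Over all genes with a length that setting gave a median of 0.002 and 49.7% below 0. The part of length and abundance in the members' ratios was not tested beyond these values.

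**Figure D2:**
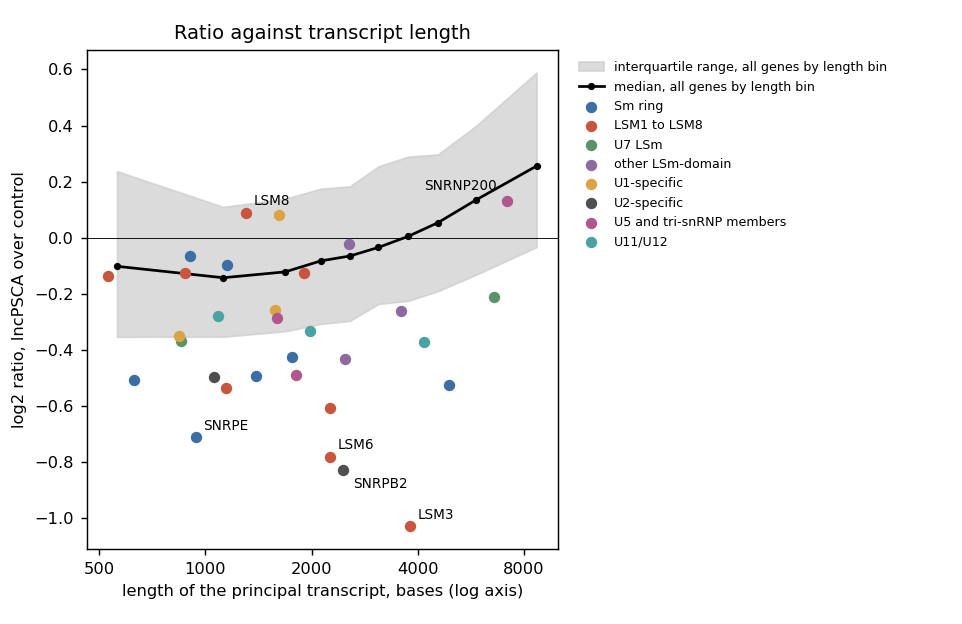
Log2 ratio of lncPSCA over control against the length of the principal transcript in bases (log axis). The black line and grey band give the median and interquartile range of all measured genes in 10 length bins, and coloured points are the 31 measured members. Of the members, 18 have ratios below the lower quartile of their own length bin, against 3750 of the 14993 measured genes with a length. LSM3, LSM6, SNRPB2 and SNRPE are among these 18 members, and SNRNP200 lies below the line but inside the band.

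The promoters of 4 members are shown because these genes mark the ends of the range: LSM3 and SNRPB2 had the lowest log2 ratios among members with a promoter window, and SNRNP200 and LSM8 the highest. Each window runs 5′ to 3′ on the gene's strand from 250 bases before to 50 bases after a RefSeq start site (GRCh38.p14), a build other than the hg19 of the counts. Capitals mark matches on either strand to CCGGAAG, the core recognised by ETS factors, or to AANATGGCG, the YY1 motif. LSM3 lies at chr3:14178567-14178866 on the + strand, SNRPB2 at chr20:16729776-16730075 (+), LSM8 at chr7:118183914-118184213 (+) and SNRNP200 at chr2:96305497-96305796 (-).
LSM3: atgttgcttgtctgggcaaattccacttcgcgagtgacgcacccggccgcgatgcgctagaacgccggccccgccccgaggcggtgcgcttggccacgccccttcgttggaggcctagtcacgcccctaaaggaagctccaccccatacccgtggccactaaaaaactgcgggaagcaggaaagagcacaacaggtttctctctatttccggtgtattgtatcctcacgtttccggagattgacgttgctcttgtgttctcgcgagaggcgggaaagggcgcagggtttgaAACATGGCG
SNRPB2: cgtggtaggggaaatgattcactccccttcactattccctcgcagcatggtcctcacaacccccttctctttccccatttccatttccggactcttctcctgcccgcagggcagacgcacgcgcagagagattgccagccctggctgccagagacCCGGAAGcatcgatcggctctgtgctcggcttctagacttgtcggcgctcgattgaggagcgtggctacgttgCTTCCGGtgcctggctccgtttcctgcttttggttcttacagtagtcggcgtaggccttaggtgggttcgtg
LSM8: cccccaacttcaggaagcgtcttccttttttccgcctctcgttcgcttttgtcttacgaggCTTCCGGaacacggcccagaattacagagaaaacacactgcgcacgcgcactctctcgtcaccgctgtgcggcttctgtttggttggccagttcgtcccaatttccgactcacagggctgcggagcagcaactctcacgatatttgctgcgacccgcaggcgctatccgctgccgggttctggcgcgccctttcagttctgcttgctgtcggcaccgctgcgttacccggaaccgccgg
SNRNP200: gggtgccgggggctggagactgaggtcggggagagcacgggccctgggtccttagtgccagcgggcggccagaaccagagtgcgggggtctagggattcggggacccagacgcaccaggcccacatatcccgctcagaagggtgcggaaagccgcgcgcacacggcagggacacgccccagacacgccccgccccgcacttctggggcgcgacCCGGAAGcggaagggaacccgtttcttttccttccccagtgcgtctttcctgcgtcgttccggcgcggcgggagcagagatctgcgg

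The ETS core stood in the SNRPB2 window and also in the SNRNP200 and LSM8 windows, so it was found at both ends of the range. The LSM3 window held no ETS core and ended in the YY1 motif. Its start site is 459 bases from the start of the annotated principal transcript, which the window does not reach; the distance was 132 bases for LSM8, 42 for SNRPB2 and 31 for SNRNP200, whose windows hold it. A RefSeq window was found for 27 members, and none for LSM1, LSM6, LSM14A, SNRNP35 and SNRPD1. The principal transcript's start lay in 22 of the 27 windows and outside those of LSM3, SNRNP27, SNRPA, SNRPG and SNRPN. The ETS core was in 11 of the 27 windows (40.7%), against 19.4% of the 10148 windows of measured genes and 13.3% of all 17390 windows of this length, searched on both strands. The NRF1 motif, GCGC followed by any pair of bases and GCGC, was in 7 of 27 (25.9%, against 16.5% of measured genes), and CCAAT, the CCAAT box, in 13 (48.1%, against 36.5%). A pair of interferon-response half-sites, GAAA followed by any pair of bases and GAAA, was in 2 windows, those of SNRPB2 and SNRPC (7.41%, against 2.83% of measured genes). GGGCGG, the SP1 motif, was in 17 (63.0%, against 71.8%), the YY1 motif in 2 (7.41%, against 7.14%) and CACGTG, the E-box, in 1 (3.70%, against 10.0%). The 27 windows include that of SNRPN, which was not measured and held the NRF1 and SP1 motifs. Each motif was searched separately, without regard to overlap with another. These matches describe the windows and say nothing of which factor was bound.

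Among the Sm proteins, all 7 measured genes had ratios below 0, with a median log2 ratio of -0.49, though they spread widely. SNRPE, a subunit of the E-F-G part of the ring, was counted with 4437 reads in control against 3021 in lncPSCA, which is 210 and 128 CPM. It was 1.64-fold lower (counting interval 1.56 to 1.71) and the only Sm gene to meet the 1.5-fold rule. SNRPE missed that rule when centred along mean expression (log2 ratio -0.58) or along both mean expression and length (-0.44). Of its neighbours in the ring, SNRPG stood at 240 and 169 CPM and was 1.42-fold lower (1.36 to 1.48), and SNRPF stood at 118 and 83.8 CPM and was 1.41-fold lower (1.33 to 1.49). The 3 genes of the E-F-G part were thus all lower by between 1.41-fold and 1.64-fold, and only SNRPE by the size rule.

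SNRPD1, which pairs with SNRPD2 in the ring and is a substrate of the arginine methyltransferase PRMT5, stood at 129 and 89.6 CPM (1.44-fold lower, 1.36 to 1.52). Its partner SNRPD2 was nearly level at 186 and 178 CPM, a log2 ratio of -0.06. SNRPD3 stood at 255 and 190 CPM (1.34-fold lower, 1.29 to 1.40), whereas its partner SNRPB, which the autoimmune antibodies that gave the family its name also recognise, was at 377 and 352 CPM, a log2 ratio of -0.10. SNRPB and SNRPD2 were the least different genes of the ring, and both had log2 ratios above 0 after centring along mean expression (0.05 and 0.07) or along length (0.03 and 0.06).

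SNRPN, an imprinted paralog of SNRPB known for its expression in brain, was listed at 0 in both libraries, which allows up to 3 reads, or 0.142 CPM in control and 0.128 CPM in lncPSCA. SNURF, which shares its transcript, was also listed at 0. In GENCODE release 29 other genes on the same strand, SNURF among them, share 33.6% of the exon bases of SNRPN. How the counting treated reads that fall on more than 1 gene is not given in the sources used here, so a count of 0 is not read as absence.

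The LSM1 to LSM8 genes ran from the lowest ratio of all members to one above 0, with a median log2 ratio of -0.34. LSM3, a subunit of both LSm rings, had 2393 reads in control and 1306 in lncPSCA, or 113 and 55.6 CPM. It was 2.04-fold lower (1.91 to 2.19), and 0.842% of all measured genes had a lower ratio. The call lies close to its limit, with a log2 ratio of -1.03. LSM3 fell short of the 2-fold rule with total-count scaling (-0.97). It also did when centred along mean expression (-0.92) or along both mean expression and length (-0.95). XPC, a DNA repair gene on the opposite strand, shares 8.34% of the exon bases of LSM3 in GENCODE release 29. XPC stood at 62.8 and 68.4 CPM.

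LSM6, part of the same LSM5-LSM6-LSM7 stretch of both rings as LSM5, had 759 and 492 reads, or 36.0 and 20.9 CPM, and was 1.72-fold lower (1.53 to 1.93). LSM5 stood at 100 and 66.0 CPM and was 1.52-fold lower (1.43 to 1.63), just past the 1.5-fold limit. It fell short of that rule with total-count scaling (log2 ratio -0.54) and when centred along mean expression (-0.49), length (-0.54) or both (-0.44). LSM1, the subunit that makes the ring cytoplasmic, was just short of the limit, at 67.5 and 46.5 CPM (1.45-fold lower, 1.34 to 1.57). Other genes, BAG4 among them, share 38.5% of its exon bases on the opposite strand in GENCODE release 29.

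The other 4 genes of this set were nearly level. LSM4, whose tail is rich in arginine and glycine, stood at 345 and 316 CPM, a log2 ratio of -0.13. LSM7 stood at 181 and 164 CPM (-0.14) and LSM2 at 60.0 and 55.0 CPM (-0.13). LSM8, the subunit that makes the ring nuclear, had 915 and 1085 reads, or 43.4 and 46.2 CPM, a log2 ratio of 0.09 whose interval, -0.04 to 0.22, includes 0. LSM4 lay above 0 when centred along mean expression (0.02), and LSM2 (0.10), LSM4 (0.10) and LSM7 (0.15) all did when centred along both mean expression and length.

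**Figure D3:**
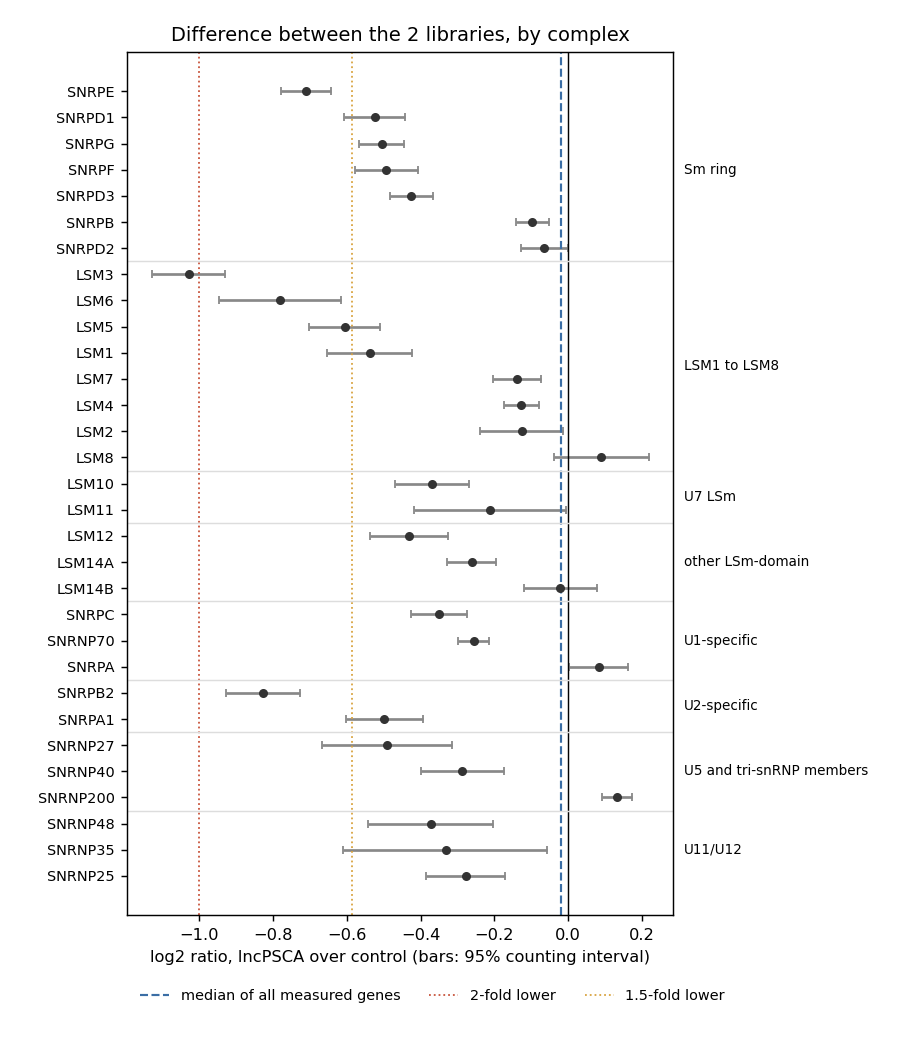
Log2 ratio of lncPSCA over control for the 31 measured genes, grouped by complex; bars are 95% counting intervals, which hold no spread between cultures, and vertical lines mark 0, the median of all measured genes (-0.02) and the 1.5-fold and 2-fold limits. LSM3 lies past the 2-fold line, LSM5, LSM6, SNRPB2 and SNRPE lie between the limits, and LSM8, SNRPA and SNRNP200 lie above 0.

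Ratios between partner genes inside each library do not depend on library scaling. LSM1, which sets apart the cytoplasmic ring, had 1.56 times as many reads as LSM8 in control but 1.01 times as many in lncPSCA, a change in the ratio of 0.647 (counting interval 0.574 to 0.730). LSM3 had 1.89 times the reads of LSM2, its neighbour in the rings, in control and 1.01 times in lncPSCA (change 0.534, 0.482 to 0.593). Reads of SNRPD1 were 0.694 times those of SNRPD2 in control and 0.505 times in lncPSCA, and reads of SNRPD3 were 0.676 and 0.539 times those of SNRPB (changes 0.727, 0.676 to 0.781, and 0.797, 0.758 to 0.838). Within the E-F-G part the change was smaller: SNRPE had 1.78 and 1.53 times the reads of SNRPF (change 0.860, 0.797 to 0.928). In the U7 ring the reads of LSM10 were 4.49 and 4.03 times those of LSM11, a change of 0.896 whose interval, 0.764 to 1.05, includes 1. These are 6 of 14 pairs, all chosen after the genes' values were seen. In each of the 14 the gene with the lower log2 ratio was put first, so every change lies below 1. The interval lay off 1 for 13 of the pairs and included it for LSM10 and LSM11 alone. How many pairs of other genes with like read numbers would do so was not counted.

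Per kilobase of the principal transcript, the leading gene differed between the libraries. SNRPG led the control library at 384 RPKM (CPM per 1000 bases), before LSM7 at 342 and SNRPB at 326. In the lncPSCA library LSM7 (311) and SNRPB (305) stood before SNRPG (270). SNRNP70 was the fourth in both, at 294 and 247 RPKM, and LSM11 the last, at 2.86 and 2.47 RPKM. Levels per length rest on annotated lengths. For LSM3 (3815 bases) and SNRPD1 (4909 bases) the annotated principal transcript is long for so small a protein, and their levels of 29.7 and 26.3 RPKM in control depend on it.

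Of the U2 snRNP proteins, both were lower by over 1.4-fold. SNRPB2, the U2 B'' protein that binds a stem-loop of U2 RNA, had 2134 reads in control and 1340 in lncPSCA, or 101 and 57.0 CPM. It was 1.77-fold lower (1.66 to 1.90), with a lower ratio in only 1.87% of all measured genes. SNRPA1, the U2 A' protein with which it binds, stood at 80.1 and 56.7 CPM and was 1.41-fold lower (1.31 to 1.52), short of the 1.5-fold rule. The reads of SNRPB2 and SNRPA1 were nearly equal in the lncPSCA library (1.01 to 1) and 1.26 to 1 in control.

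The U1 snRNP proteins lay closer to 0. SNRNP70, the U1 70K protein, stood at 463 and 388 CPM (log2 ratio -0.26). SNRPC, which helps U1 hold the 5′ splice site, stood at 142 and 111 CPM (-0.35). SNRPA, the U1 A protein and a close relative of SNRPB2, stood at 113 and 120 CPM (0.08, interval 0.00 to 0.16). SNRPA and SNRPB2, related proteins of different particles, thus differed in sign.

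In the U5 particle, SNRNP200, the helicase that unwinds U4 from U6, had the highest ratio of all members. It had 8785 reads in control and 10723 in lncPSCA, or 416 and 456 CPM, a log2 ratio of 0.13 (0.09 to 0.17). Its transcript, at 7165 bases, is the longest among the members, and centring along length brought its log2 ratio to -0.05. SNRNP40, another U5 protein, stood at 62.9 and 51.6 CPM (-0.29), and SNRNP27 of the U4/U6.U5 tri-snRNP at 28.3 and 20.2 CPM (-0.49). The 3 proteins of the U11/U12 particle were all lower by a like amount, short of either rule: SNRNP25 at -0.28, SNRNP48 at -0.37 and SNRNP35 at -0.33. SNRNP35 had the fewest reads of the measured members (233 and 206), and RILPL1, on the opposite strand, shares 40.1% of its exon bases in GENCODE release 29.

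Of the U7 particle, whose ring holds LSM10 and LSM11 in place of a pair of Sm proteins, LSM10 stood at 84.5 and 65.4 CPM (log2 ratio -0.37) and LSM11 at 18.8 and 16.2 CPM (-0.21, interval -0.42 to -0.01). LSM12, an LSm-domain protein outside these rings, stood at 76.7 and 56.9 CPM (-0.43). LSM14A, a P-body protein that binds the helicase DDX6, stood at 177 and 148 CPM (-0.26). Its paralog LSM14B was level at 74.3 and 73.2 CPM (-0.02, interval -0.12 to 0.08), with a sign that turned under total-count scaling and each centring.

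Many members have processed pseudogenes, which can take reads from the parent gene. The table holds 66 rows named as a pseudogene of a member, for 13 parents, and 15 of these rows had a read. Only 5 had at least 10 reads in each library. Reads of LSM12P1 (252 and 212) amounted to 15.6% and 15.9% of those of LSM12, and reads of SNRPA1P1 to 11.6% and 11.3% of those of SNRPA1. For SNRPG, with 20 such rows, they were 4.43% and 4.51%, and for SNRPE, with 10, they were 2.93% and 3.11%. Adding these reads to the parent left the log2 ratio of SNRPE at -0.71, of SNRPG at -0.50 and of SNRPA1 at -0.50. The 4 pseudogene rows of LSM3 had no read. How reads that map to more than 1 place were treated is not given in the sources used here. Reads left out of both parent and pseudogene would not show in these sums. Of the 32 members, 20 share no exon base with another gene in GENCODE release 29.

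The genes that the members work with also lay mostly below 0, with a median nearer to 0. The 7 lists of proteins held 69 genes, of which 68 were measured, with a median log2 ratio of -0.21; 1 was lower by the 2-fold rule (0.596% of all measured genes), 2 were higher (3.02% of all measured genes) and 65 met it in neither direction. With 68 genes, 2 higher genes are about the share of all measured genes. Of the 68, 54 had log2 ratios below 0 (79.4%), against 51.9% of all measured genes. Their principal transcripts had a median of 2877 bases, against 1621 bases for the members. The part of length in the difference between the medians was not tested. Of the 10 SF3A and SF3B proteins, which anchor U2 at the branch site, none met the rule (median -0.18), and those with most reads were SF3B2 (434 and 418 CPM) and SF3B3 (361 and 352 CPM). None of the 13 other U5 and tri-snRNP proteins did either (median -0.18), among them PRPF8, the centre of the catalytic core (374 and 398 CPM), and EFTUD2, a GTPase of U5 (289 and 259 CPM). The 6 proteins of the minor spliceosome had a median of -0.20, with SCNM1 at 76.1 and 57.0 CPM and ZCRB1 at 69.7 and 44.7 CPM. Of 6 proteins of U6 RNA maturation, all had ratios below 0 (median -0.30), including MEPCE, a methyltransferase known for capping 7SK RNA (212 and 166 CPM), and SART3, which recycles U6 (143 and 130 CPM).

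GEMIN6, a component of the SMN complex that loads Sm proteins onto snRNA, was the gene of these lists with the lowest ratio. It had 888 reads in control and 407 in lncPSCA, or 42.1 and 17.3 CPM, and was 2.43-fold lower (2.16 to 2.74). It was the only 1 of 17 SMN and methylosome genes to meet the 2-fold rule (list median -0.25). PRMT5, which methylates Sm proteins before assembly, stood at 274 and 243 CPM. SMN1 and SMN2 are near-identical copies and had 1405 and 1431 reads in control, so how shared reads were divided between them is unknown.

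The decapping and histone lists held the 2 higher genes, both with long transcripts. XRN1, the exonuclease that degrades decapped mRNA, had 177 and 419 reads, or 8.39 and 17.8 CPM, and was 2.12-fold higher (1.78 to 2.55). Its principal transcript has 10143 bases, and it fell short of the rule when centred along length (log2 ratio 0.80) or along both mean expression and length (0.72). DDX6, a helicase of the decapping complex, stood at 115 and 92.8 CPM, and the median of the 8 measured decapping genes was 0.10. DCP1A was listed at 0 in both libraries, which, as for SNRPN, is not read as absence. CASP8AP2, known as FLASH, a partner of LSM11 in histone mRNA processing, had 79 and 340 reads, or 3.74 and 14.5 CPM, and was 3.86-fold higher (3.02 to 5.00). Its principal transcript has 6151 bases, and it met the rule under each of the 9 alternatives, with a log2 ratio of 1.80 when centred along length and 1.69 when centred along both mean expression and length. SYMPK, a scaffold of the cleavage complex, stood at 153 and 162 CPM, and the median of the 8 histone processing genes was 0.02.

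**Figure D4:**
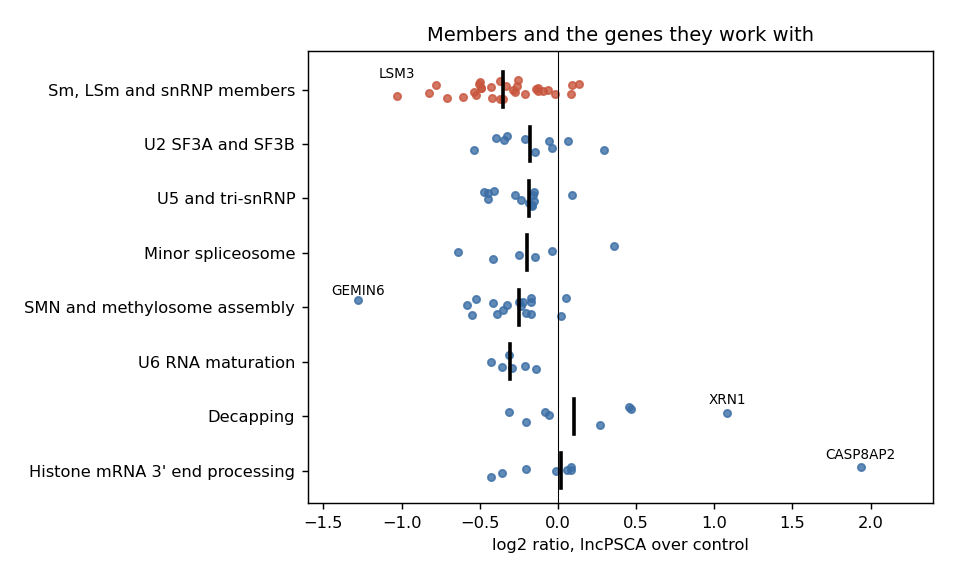
Log2 ratio of lncPSCA over control for the 31 measured members and for the measured genes of 7 lists of their partners; each point is a gene, black ticks are medians, and genes that met the 2-fold rule are named. The medians run from -0.35 for the members to 0.10 for decapping, and LSM3 and GEMIN6 are the named genes on the lower side.

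The small nuclear RNAs that the proteins bind could not be compared. Of 12 snRNA genes looked for, 9 had a row, and none reached 1 CPM. RNU5A-1, a U5 gene, had the most reads of these, 12 in control and 6 in lncPSCA, and RNU1-1 had 1 and 1.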

How the data were processed

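RNA was sequenced from 1 control and 1 lncPSCA culture of HGC-27 cells (21552098 and 23016646 counts). The authors deposited 1 table of raw read counts per Ensembl gene, with a column for each library. The submitters' processing notes name TopHat2, HTSeq and hg19, with no settings. Neither strand setting nor annotation release nor library kit is given in the sources used here. A symbol was found for 52181 genes (81.9%), and for all 32 members.

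TMM factors (edgeR 4.0.16) scaled the library sizes. CPM, log2 ratios (pseudocount 1) and exact 95% Clopper-Pearson counting intervals were computed from the counts for all genes. The intervals cover counting error only, and without molecular identifiers reads are not independent molecules. Change intervals of partner ratios are exact conditional odds ratio intervals (scipy 1.17.1). Transcript lengths and exon overlaps came from GENCODE release 29 (GRCh38), matched by gene identifier. Length is that of the longest APPRIS principal transcript, or of the longest transcript where a gene has no principal one. With this definition 14993 measured genes had a length. Promoter sequences are RefSeq's (GRCh38.p14), at the window nearest to the start of the transcript used for length.

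The members and lists were chosen with earlier results of these data known. All members are named; of each list, the genes that met the 2-fold rule and then those with the highest CPM, 2 in all. DCP1A, SMN1, SMN2 and XPC were named after their values were seen, as were the partner pairs. Alternatives were DESeq2 1.42.0 size factors, upper-quartile and total-count scaling, a CPM minimum of 5 or none, a pseudocount of 5, and lowess centring (span 0.3, statsmodels 0.14.6) along mean expression, length, or both.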

Additional observations from a re-analysis of the deposited data

How the results depend on the processing

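No paired analysis was possible because each group has 1 library, and no replicate could be left out. With DESeq2 size factors, upper-quartile scaling, no CPM minimum, a minimum of 5 CPM or a pseudocount of 5, the 5 members lower by the 1.5-fold rule and LSM3 by the 2-fold rule were the same genes. With total-count scaling 0 members were lower by the 2-fold rule and 4 by the 1.5-fold rule. Centring along mean expression left 0 by the 2-fold and 3 by the 1.5-fold rule (LSM3, LSM6 and SNRPB2), with medians of -0.37 for the Sm genes and -0.24 for LSM1 to LSM8. Centring along length gave -0.37 and -0.22, and put SNRPD1 in place of LSM5 among the 5. Centring along both, an alternative chosen after seeing the data, left 0 and 3, with medians of -0.20 for all members, -0.22 for the Sm genes and -0.11 for LSM1 to LSM8. No member was higher by either rule under any of these 9 alternatives, and the scalings moved the median of all genes by at most 0.06. The cause of these shifts was not tested. Depth limits SNRNP35 most, with 233 and 206 reads.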
